A study of Arabidopsis thaliana with 7 samples.

Results

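The genes described here encode PSBS and 7 small or accessory proteins of photosystem II, all of them nuclear genes of Arabidopsis thaliana: PSBS (AT1G44575), PSBW (AT2G30570), PSBX (AT2G06520), PSBY (AT1G67740), PSBTN (AT3G21055), PSB27 (AT1G03600), PSB28 (AT4G28660) and THF1 (AT2G20890). They were taken by gene identifier, and all 8 were found among the 27655 genes of the deposited table. RNA sequencing had been done on the glk1 glk2 double mutant (4 libraries) and on the wild type, WT (3 libraries). The comparison asks which RNA levels depend on the pair of GOLDEN2-LIKE transcription factors. Both groups were seedlings of the Col-0 ecotype, aged 12 days, kept at 16 °C under long days on 1/2 MS medium and sampled at ZT4, which is 4 h after lights on. No source used here names the mutant alleles or says whether seedlings were pooled or replicates came from separate plantings. The p-values therefore rest on library-to-library spread, part or all of which may be technical.

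Photosystem II splits water and passes electrons into the photosynthetic chain of the thylakoid membrane. Its core is built from chloroplast-encoded subunits together with some small proteins made from nuclear genes and imported into the plastid. Other nuclear-encoded proteins assemble and repair it. PSBS is different in kind, as it senses acidification of the thylakoid lumen and switches the antenna into a state that releases excess light energy as heat. GLK1 and GLK2 are known as activators of nuclear photosynthesis genes while chloroplasts form.

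Values are TPM, transcript abundance per length of transcript scaled to a fixed total in each library, so levels of different genes may be compared. TPM holds no read depth, and the depth behind each value is unknown. Because the total is fixed, a large change in a few abundant transcripts moves all others. The median log2 fold change of the 19127 tested genes, mutant minus WT on the log2(TPM + 1) scale, was 0.33 in TPM and 0.0075 after scaling by trimmed mean of M values (TMM), which centres most genes near 0. A gene is said below to have risen or fallen only where limma gave an adjusted p under 0.05 in the same direction with both scalings. In the table, GLK1 stood at 49.7 to 56.0 TPM in mutant libraries and at 183 to 203 TPM in WT libraries, and GLK2 at 46.0 to 54.4 TPM in mutant libraries and 155 to 161 TPM in WT libraries (exact two-sided permutation p = 0.0286 in both cases, which is the lower limit with 35 ways to divide 7 libraries). Each library listed 22580 to 22693 genes above 0 TPM.

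One column of the deposited table was out of step with the others. Of its genes, 5606 stand out of alphabetical order, and over these the WT replicate 1 values correlated with the other libraries across genes at r = 0.055. Reading the column in alphabetical order of the identifiers gave r = 0.995. Over the 22049 genes in order r was 0.995 (genes are not independent replicates). The column was read in alphabetical order here, which among the 8 genes changes PSBTN alone.

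Of the 8 genes, 5 fell and 0 rose in the mutant by limma, and at an unadjusted p under 0.05 with both scalings the counts were also 5 and 0. PSBTN, PSBW, PSBX, PSBY and PSB27 fell to between 49.3% and 67.1% of their WT mean in TPM, and PSBS, THF1 and PSB28 were not called with both scalings. Over all tested genes, 2.53% were called lower and 3.08% higher with both scalings. All 8 passed the filter on low values, and the lowest of their 56 values was 96.7 TPM. The median log2 fold change of the 8 genes was -0.59 (TPM) and -0.96 (TMM-scaled). In TPM alone 5 were called lower, against 2.56% of all genes, and with TMM scaling alone also 5, against 5.1%. The groups of TPM values did not overlap for the 5 genes that fell, where 2.54% of all genes had every mutant library under every WT library.

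**Figure D1:**
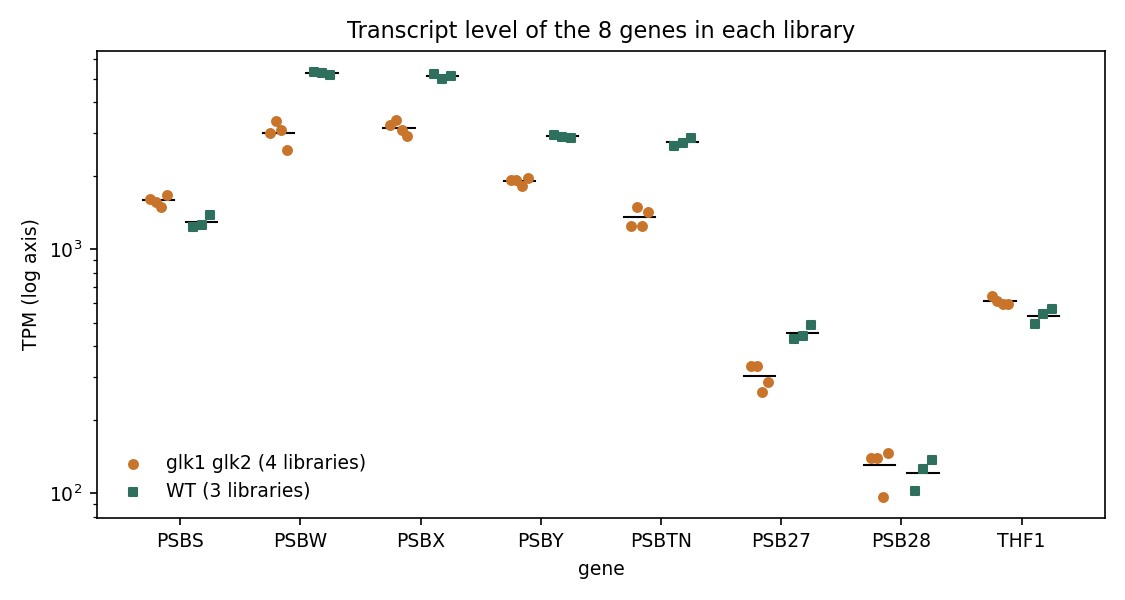
TPM of the 8 genes in each library on a log axis. Circles are the 4 glk1 glk2 libraries, squares the 3 WT libraries and bars the group means. PSBW, PSBX, PSBY, PSBTN and PSB27 lie lower in every mutant library than in any WT library, and only PSB28 has groups that overlap.

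The genes lie on chromosomes 1 to 4 of the RefSeq annotation of TAIR10.1. The submitters' processing notes name TAIR10, and the deposited table has no coordinates. PSBS, named NPQ4 in the annotation, runs from position 16870221 to 16873427 of chromosome 1 on the plus strand, PSBY from 25394031 to 25395249 of chromosome 1 on the minus strand, and PSB27 from 898480 to 899794 of chromosome 1 on the plus strand. PSBW lies on the minus strand of chromosome 2 from 13019028 to 13020311, and PSBX on the same strand from 2587729 to 2588448. PSBTN lies on the minus strand of chromosome 3 from 7376432 to 7377226, PSB28 on the plus strand of chromosome 4 from 14149849 to 14151163, and THF1 on the plus strand of chromosome 2 from 8987584 to 8989416. The longest annotated protein had 116 residues for PSBX, 133 for PSBW, 143 for PSBTN, 174 for PSB27, 189 for PSBY, 198 for PSB28, 265 for PSBS and 300 for THF1, transit peptides included.

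Reads shared with other genes were looked for as stretches of 50 bases of the longest transcript that also occur in a transcript of another annotated gene. For 7 of the 8 genes 100% of the stretches were their own. For THF1 it was 92.8%, and AT2G07345 and AT2G20900 overlap it on the opposite strand. The strand setting of the counting is not given in the sources used here, so reads of THF1 and of these genes cannot be told apart there. AT2G20900 itself averaged 20.5 TPM in the mutant and 14.7 TPM in WT, small beside THF1. AT2G07345 was not listed in the data, so its level is unknown.

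The 250 bases before the annotated start were searched on both strands for CCAATC and GATTCT, each linked to GLK binding, for the G-box CACGTG and for the GATA-type element GATAAG. Of 19042 tested protein-coding genes, 10.4% had CCAATC, 15.6% GATTCT, 7.47% CACGTG and 12.4% GATAAG in this window. Of the 8 genes, CCAATC was present in 1 (PSB27), GATTCT in 2 (PSBW and PSBX), CACGTG in 2 (PSBTN and PSB28) and GATAAG in 0. Of the genes that fell, PSBY held none of the 4 motifs, nor did PSBS and THF1 among the others. The windows of PSB27, which fell, and of PSB28 and PSBS, which were not called, are shown from RefSeq TAIR10.1 to set a gene that fell beside genes that were not called. They are written 5′ to 3′ in the direction of transcription, with motif matches in capitals, and none of the 3 overlaps another annotated gene. PSB27 has CCAATC at 80 bases before the start and its reverse complement at 195 bases before it, and PSB28 has a G-box at 132 bases before it.
PSB27, chr1:898230-898479, plus strand: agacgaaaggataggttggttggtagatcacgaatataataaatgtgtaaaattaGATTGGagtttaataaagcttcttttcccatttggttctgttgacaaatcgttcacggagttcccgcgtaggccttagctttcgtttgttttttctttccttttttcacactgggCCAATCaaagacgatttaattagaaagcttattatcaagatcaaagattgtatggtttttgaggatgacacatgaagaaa
PSB28, chr4:14149599-14149848, plus strand: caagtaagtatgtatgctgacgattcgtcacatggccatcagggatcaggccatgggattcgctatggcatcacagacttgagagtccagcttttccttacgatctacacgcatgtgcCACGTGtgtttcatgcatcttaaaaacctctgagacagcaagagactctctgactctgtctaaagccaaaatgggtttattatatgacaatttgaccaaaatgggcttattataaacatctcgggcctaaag
PSBS, chr1:16869971-16870220, plus strand: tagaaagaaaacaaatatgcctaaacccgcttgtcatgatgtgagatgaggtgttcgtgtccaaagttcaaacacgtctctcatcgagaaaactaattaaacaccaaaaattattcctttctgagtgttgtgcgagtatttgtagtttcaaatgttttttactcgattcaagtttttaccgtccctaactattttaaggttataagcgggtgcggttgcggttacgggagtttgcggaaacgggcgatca
These matches are descriptions of the windows, and binding was not measured.

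PSBS, the sensor for energy-dependent quenching, was higher in TPM in the mutant but not after TMM scaling. It had 1611, 1567, 1487 and 1672 TPM in the mutant libraries, against 1235, 1253 and 1385 TPM in the WT libraries. Every mutant library lay above every WT library, as did 62.8% of all genes, and the ratio of the means was 1.23. The log2 fold change was 0.30 ± 0.08 (SE) in TPM (limma adjusted p = 0.0085), close to the median of all genes of 0.33, and 41.9% of tested genes had a lower one. In TPM alone 63.0% of all genes were called higher. After TMM scaling the log2 fold change of PSBS was -0.07 (95% interval -0.28 to 0.14, adjusted p = 0.694) and the groups overlapped. PSBS was therefore not called with both scalings.

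The 4 genes for small subunits of the complex all fell. PSBW, a protein with 1 membrane span that is known to stabilise the supercomplexes of photosystem II with its antenna, had 2997, 3355, 3081 and 2542 TPM in mutant libraries, against 5327, 5267 and 5193 TPM in WT libraries. The mutant mean was 56.9% of the WT mean. The lowest mutant value was that of replicate 4, and no mutant library came near the WT range. Its log2 fold change was -0.82 ± 0.11 (SE, limma adjusted p = 0.000558) in TPM and -1.19 after TMM scaling (adjusted p = 0.000756).

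PSBX, a small subunit that lies near cytochrome b559, had 3222, 3391, 3067 and 2917 TPM in mutant libraries, against 5208, 4974 and 5152 TPM in WT libraries. Its mutant mean was 61.6% of the WT mean, and its log2 fold change was -0.70 ± 0.09 (SE, limma adjusted p = 0.000488) in TPM and -1.07 after TMM scaling (adjusted p = 0.000714). PSBX and PSBW were the most abundant of the 8 in both groups. With quantile normalization in place of both scalings, PSBW had a log2 fold change of 0.05 (limma adjusted p = 0.778) and PSBX one of 0.27 (adjusted p = 0.117). That method sets values by rank within a library, and PSBW ranked 19 in the mutant and 21 in WT, and PSBX 16 in the mutant and 24 in WT.

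PSBY, whose single gene in Arabidopsis is known to encode a precursor cut into a pair of related membrane proteins, had 1919, 1914, 1818 and 1949 TPM in mutant libraries, against 2951, 2896 and 2853 TPM in WT libraries. The 4 mutant libraries differed little, with a coefficient of variation of 2.99%, and the mutant mean was 65.5% of the WT mean. Its log2 fold change was -0.61 ± 0.07 (SE, limma adjusted p = 0.000378) in TPM and -0.98 after TMM scaling (adjusted p = 0.000301). With quantile normalization it was -0.20 (limma adjusted p = 0.152), and PSBY ranked 50 in the mutant and 41 in WT.

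PSBTN, a small protein on the lumenal side of photosystem II, had the lowest fold change of the 8. It had 1244.5, 1489.5, 1249.9 and 1427 TPM in mutant libraries, against 2645, 2715 and 2864 TPM in WT libraries. Its mutant mean was 49.3% of the WT mean, and every mutant library lay far under the WT range. The log2 fold change was -1.02 ± 0.09 (SE, limma adjusted p = 0.000143) in TPM and -1.39 after TMM scaling (adjusted p = 0.000138), and 0.617% of tested genes had a lower one in TPM. Its WT replicate 1 value is 5.15 TPM as deposited and 2645 TPM in alphabetical order. Read as deposited, PSBTN had a log2 fold change of 1.89 (limma adjusted p = 0.472), and with that value left out it had -1.05.

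The 3 proteins that act on photosystem II without being part of the finished complex did not change alike. PSB27, a lumenal protein known to bind assembly and repair intermediates of photosystem II, had 333, 333, 260.04 and 285 TPM in mutant libraries, against 427, 439 and 487 TPM in WT libraries. Its mutant mean was 67.1% of the WT mean, with no overlap between the groups. Its log2 fold change was -0.58 ± 0.10 (SE, limma adjusted p = 0.0015) in TPM and -0.94 after TMM scaling (adjusted p = 0.0019). LPA19, its paralog, which is known in Arabidopsis for processing of the D1 precursor, averaged 29.2 ± 3.94 TPM (SD, n = 4) in the mutant and 25.9 ± 2.68 TPM (SD, n = 3) in WT and was not called (limma adjusted p = 0.229 in TPM and 0.419 after TMM scaling).

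PSB28, known from cyanobacteria as a factor bound to early assembly intermediates, had 139, 139.6, 96.7 and 145 TPM in mutant libraries, against 102, 125 and 136 TPM in WT libraries. The groups overlapped, and mutant replicate 3 stood under all other libraries. Its log2 fold change was 0.10 (95% interval -0.25 to 0.44, limma adjusted p = 0.586) in TPM and -0.27 (-0.65 to 0.12, adjusted p = 0.375) after TMM scaling. Its spread was the widest of the 8, with coefficients of variation of 17.3% in the mutant and 14.5% in WT.

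THF1, also called PSB29, is known in Arabidopsis for thylakoid formation and for keeping up the thylakoid FTSH proteases. It had 643, 614.5, 595.07 and 595.1 TPM in mutant libraries, against 491, 541 and 569 TPM in WT libraries. Every mutant library lay above every WT library in TPM, as did 62.8% of all genes, and the ratio of the means was 1.15. The log2 fold change of THF1 in TPM was 0.20 ± 0.07 (SE, limma adjusted p = 0.0318), under the median of all genes of 0.33. Of tested genes, 24.6% had a lower one. After TMM scaling that of THF1 was -0.17 (95% interval -0.36 to 0.022, limma adjusted p = 0.26) and the groups overlapped. THF1 was therefore not called with both. Leaving out 1 library at a time, its limma adjusted p in TPM reached 0.128, so its TPM call did not hold in every case.

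**Figure D2:**
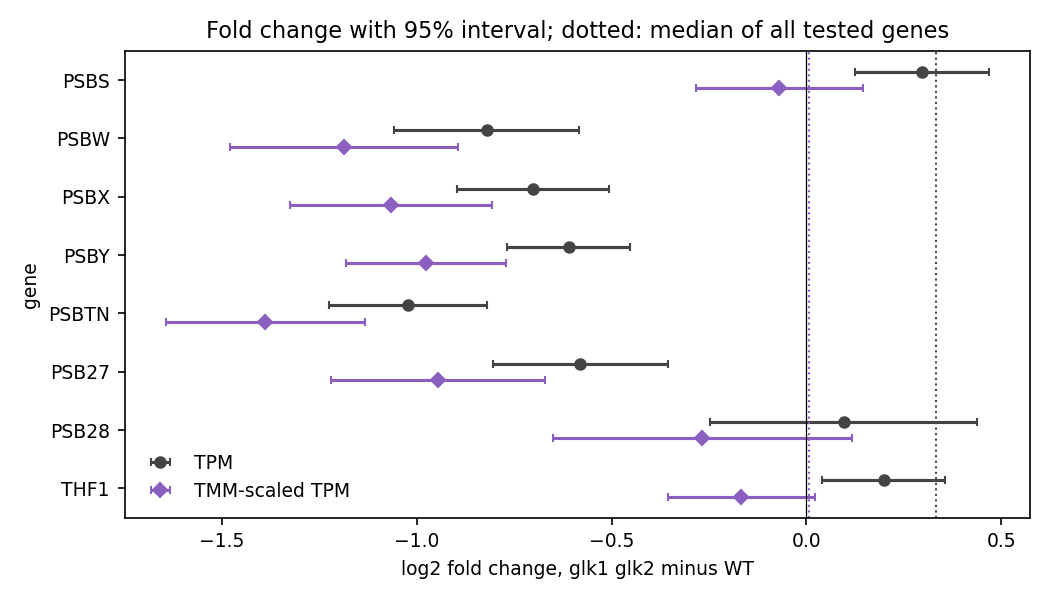
Log2 fold change of each of the 8 genes, glk1 glk2 minus WT, in TPM (circles) and after TMM scaling (diamonds), with 95% intervals from limma. Dotted lines mark the median of all tested genes at 0.33 in TPM and 0.0075 after TMM scaling. The intervals of PSBTN, PSBW, PSBX, PSBY and PSB27 lie under 0 with both scalings, and those of PSBS and THF1 lie above 0 in TPM and include 0 after TMM scaling.

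The order of the levels differed between the groups. In the mutant it was PSBX, PSBW, PSBY, PSBS, PSBTN, THF1, PSB27 and PSB28, and in WT it was PSBW, PSBX, PSBY, PSBTN, PSBS, THF1, PSB27 and PSB28. PSBX and PSBW did not separate beyond their spread in either group, with PSBX the higher in 3 of 4 mutant libraries and PSBW in 3 of 3 WT libraries. PSBS and PSBTN changed places. Within libraries PSBS stood above PSBTN in 4 of 4 mutant libraries, although their ranges overlapped, and PSBTN stood above PSBS in 3 of 3 WT libraries with no overlap of ranges. PSBY and PSBTN overlapped in WT and lay apart in the mutant.

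The 8 transcripts together held 1.20% ± 0.058 (SD, n = 4) of the TPM total in the mutant and 1.84% ± 0.022 (SD, n = 3) in WT. Within that sum, which does not depend on the scaling, PSBS made up 13.2% ± 0.967 in the mutant and 7.01% ± 0.374 in WT. THF1 made up 5.09% ± 0.215 in the mutant and 2.90% ± 0.2 in WT, and PSB28 1.08% ± 0.183 in the mutant and 0.657% ± 0.092 in WT. PSBTN made up 11.3% ± 0.934 in the mutant and 14.9% ± 0.489 in WT. The shares of PSBY and PSB27 overlapped between the groups.

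Ratios of 2 transcripts within a library do not depend on the scaling either. For 1 PSBS transcript there were 1.90 ± 0.279 PSBW transcripts (SD, n = 4) in the mutant and 4.09 ± 0.299 (SD, n = 3) in WT, and 1.99 ± 0.178 PSBX transcripts in the mutant and 3.97 ± 0.249 in WT. PSBTN stood at 0.773, 0.95, 0.841 and 0.853 times PSBS in mutant libraries, against 2.14, 2.17 and 2.07 times in WT libraries. PSB27 stood at 0.191 ± 0.021 times PSBS in the mutant and 0.349 ± 0.0031 times in WT. None of these groups of ratios overlapped, but how many of all genes would show this relative to PSBS was not counted.

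**Figure D3:**
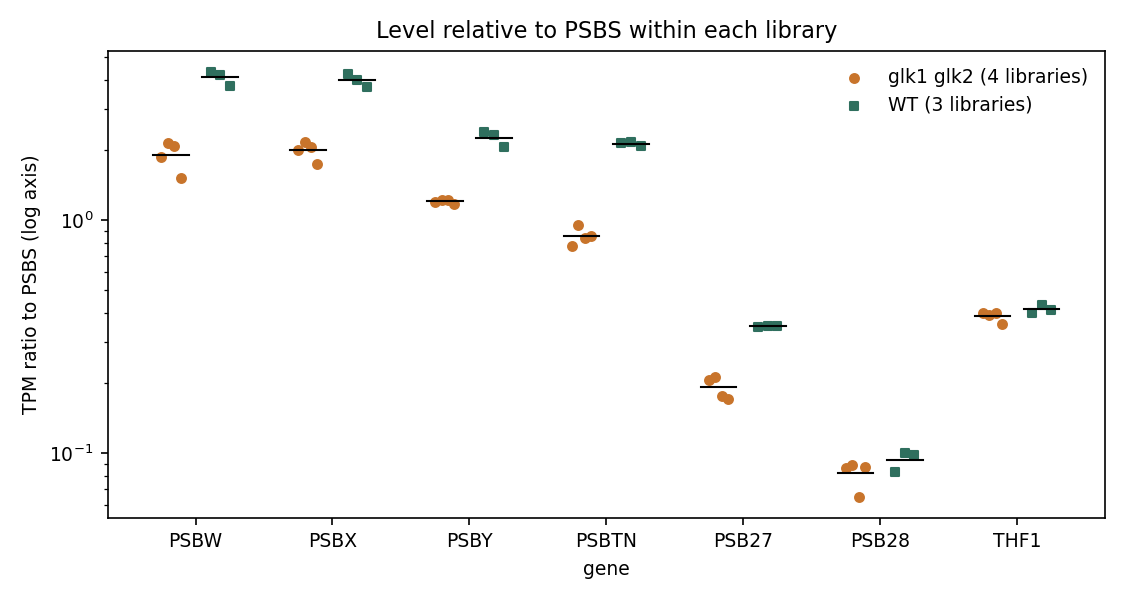
Ratio of the TPM of 7 genes to that of PSBS in the same library, on a log axis. Circles are glk1 glk2 libraries, squares WT libraries and bars the group means. PSBW, PSBX, PSBY, PSBTN and PSB27 have lower ratios in every mutant library than in any WT library. The ratios of PSB28 and THF1 overlap between the groups. How many of all genes have ratios that do not overlap was not counted.

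Whether the genes changed by different amounts was tested with limma. It was fitted to the log2 ratio of every gene to 1 of the 8 in the same library. The p-values were adjusted over all other tested genes. The spread of the reference gene between libraries enters every ratio of a fit, and limma pools spread over genes as if they were independent. The p-values of these ratios can therefore be too small and their intervals too narrow. Relative to PSBS, 3.12% of all genes were called lower and 2.02% higher. PSBTN was lower relative to PSBS by a log2 difference of -1.32 ± 0.09 (SE, adjusted p = 4.610e-06), PSBW by -1.12 ± 0.12 (adjusted p = 0.000234), PSBX by -0.996 ± 0.0996 (adjusted p = 0.000102), PSBY by -0.91 ± 0.09 (adjusted p = 6.265e-05) and PSB27 by -0.88 ± 0.10 (adjusted p = 0.000207). Differences were not called for THF1, at -0.10 (95% interval -0.27 to 0.08, limma adjusted p = 0.577), or for PSB28, at -0.20 (-0.47 to 0.07, adjusted p = 0.426).

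Over the 28 pairs of the 8 genes, 18 differences were called and 10 were not. The 15 pairs of a gene that fell with one that was not called were all called, and so were 3 of the 10 pairs among the genes that fell, all with PSBTN. In the fits relative to genes that fell nearly all other genes were called as well. That was not so relative to PSBS, PSB28 or THF1. Each pair was fitted once, with the gene named earlier in the opening list as reference. All pairs of PSB28 or THF1 with a gene that fell were thus fitted relative to the gene that fell. The adjusted p depends on that choice, and the reverse fits were not counted. Of all genes, 97.2% were called higher and 0.622% lower relative to PSBX, 96.5% higher and 0.701% lower relative to PSBY, and 98.6% higher and 0.397% lower relative to PSBTN. PSBTN was lower relative to PSBX by -0.32 ± 0.10 (SE, limma adjusted p = 0.0065) and relative to PSBY by -0.41 ± 0.09 (adjusted p = 0.00095). PSB27 was higher relative to PSBTN by 0.44 ± 0.12 (adjusted p = 0.0014). PSBTN relative to PSBW was not called, at -0.20 (95% interval -0.48 to 0.08, limma adjusted p = 0.15). Without mutant replicate 4, which had the lowest PSBW value, that difference was -0.30 (limma adjusted p = 0.0052). Over all runs with 1 library left out it ran from -0.30 to -0.15, with a limma adjusted p of up to 0.349. PSB27 relative to PSBW was 0.24 (adjusted p = 0.0821) and without mutant replicate 3, which had the lowest PSB27 value, 0.33 (limma adjusted p = 0.0205). Over the same runs this difference went from 0.19 to 0.33, with a limma adjusted p of up to 0.254. PSBX relative to PSBW was 0.12 (95% interval -0.13 to 0.37), and PSBY relative to PSBX 0.09 (-0.10 to 0.28). Among the genes not called, THF1 relative to PSB28 was 0.10 with a wide interval of -0.32 to 0.52.

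For each gene the 3 others with the most similar pattern over the 7 libraries were found among 3168 genes with a mean of at least 50 TPM. The measure was the Euclidean distance of log2(TPM + 1) after subtraction of each gene's WT mean. The gene nearest to PSBW was PSAD-1, for a subunit of photosystem I, at a distance of 0.101, which averaged 3042 TPM in the mutant and 5399 TPM in WT. CHLM, a methyltransferase of chlorophyll synthesis, and PSY, phytoene synthase, followed at 0.25 and 0.268. PSBY lay nearest to PGRL1A at 0.121 and to PSBO2 at 0.149, and PSB27 to PSBO2 at 0.176, ENH1 at 0.213 and the carbonic anhydrase gene CA2 at 0.222. Nearest to PSBTN were AT4G33666 at 0.18, Lhca6 of the photosystem I antenna at 0.229 and PSBP1 at 0.309. PSBX lay nearest to RPT2, AT2G43560 and ATCTH (0.159 to 0.174), and AT2G43560 was also the third for PSBY at 0.17.

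The genes nearest to PSBS were ACHT2, AT2G44870 and AT1G05140, at distances between 0.0813 and 0.0937. Their own TPM fold changes lay at 0.28 to 0.29 on the log2 scale. Those nearest to THF1 were AT3G61870, AT4G25370 and AT3G20390, at 0.0918 to 0.103. PSB28 had no gene closer than SULA at 0.297, with AT3G56010 and AT4G13500 at 0.299 and 0.302.

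Other genes of photosystem II were set beside the 8. All 7 genes of the oxygen-evolving complex on the lumenal side fell, and the list's median log2 fold change was -0.77 (TPM) and -1.13 (TMM-scaled). PSBQ2 averaged 733 ± 92.9 TPM (SD, n = 4) in the mutant and 2628 ± 24.1 TPM (SD, n = 3) in WT, PSBP2 1.55 ± 0.295 TPM in the mutant and 7.02 ± 0.57 TPM in WT, and PSBP1 2616 ± 176 TPM in the mutant and 4855 ± 102 TPM in WT. With quantile normalization 4 of the 7 were called lower and 1 higher. The one called higher was PSBO1, at a log2 fold change of 0.36 (limma adjusted p = 0.0217) against -0.77 in TPM, and PSBP1 (0.053) and PSBR (0.13) were not called. Without any 1 of the 3 WT libraries 6 of the 7 were called lower. Relative to PSBS all 7 were called lower. Relative to PSBW 2 were called lower and 2 higher, where 0.481% of all genes were called lower and 97.8% higher.

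Of the 5 minor antenna genes 4 fell, with a median of -1.36 in TPM. LHCB4.2 averaged 987 ± 155 TPM (SD, n = 4) in the mutant and 4366 ± 141 TPM (SD, n = 3) in WT, LHCB6 1482 ± 218 TPM in the mutant and 5296 ± 74.4 TPM in WT, and LHCB4.1 2007 ± 152 TPM in the mutant and 5137 ± 71.8 TPM in WT. With quantile normalization LHCB5 was no longer called (-0.23, limma adjusted p = 0.0956). Relative to PSBW 4 were called lower and 1 higher.

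Of 22 genes for assembly and repair of photosystem II, 4 fell and 0 rose by limma (also 4 and 0 at an unadjusted p under 0.05 with both scalings), and the median log2 fold change was 0.16 (TPM) and -0.20 (TMM-scaled). CYP38, a lumenal cyclophilin needed for assembly, averaged 160 ± 10.13 TPM (SD, n = 4) in the mutant and 232 ± 14.97 TPM (SD, n = 3) in WT. HHL1 averaged 261 ± 19.1 TPM in the mutant and 328 ± 15.2 TPM in WT, and TLP18.3, a lumenal protein of repair, 630.1 ± 50.5 TPM in the mutant and 774 ± 15.8 TPM in WT. Relative to PSB27, 20 of the 22 were called higher and 0 lower by limma, where 95.9% of all genes were called higher and 0.695% lower. Relative to PSB28 limma called 0 in either direction (1 lower at an unadjusted p under 0.05), where 1.11% of all genes were called lower and 0.967% higher.

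Of 12 genes of energy-dependent quenching and of the cyclic and xanthophyll routes tied to it, 1 fell and 0 rose by limma (1 and 1 at an unadjusted p under 0.05 with both scalings). In TPM alone 10 were called higher, where 63.0% of all genes were. Their median log2 fold change was 0.31 (TPM) and -0.05 (TMM-scaled), and that of PSBS itself was 0.30 and -0.07. Both lay close to the median of all tested genes, 0.33 (TPM) and 0.0075 (TMM-scaled), so the likeness is not particular to this list. The gene that fell was PGRL1A, of cyclic electron flow, at 378 ± 10.7 TPM (SD, n = 4) in the mutant and 597 ± 4.08 TPM (SD, n = 3) in WT. Relative to PSBS, 2 were called lower, 1 higher and 9 in neither direction.

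Among the 4 thylakoid FTSH genes, whose products depend on THF1, FTSH8 rose and 0 fell by limma (3 higher and 0 lower at an unadjusted p under 0.05 with both scalings). FTSH8 averaged 184 ± 8.97 TPM (SD, n = 4) in the mutant and 118 ± 0.737 TPM (SD, n = 3) in WT, with a TMM-scaled limma adjusted p of 0.0358. Its call was lost without any 1 of the 3 WT libraries (TMM-scaled limma adjusted p = 0.124, 0.154 and 0.0872 without replicate 1, 2 or 3) and without mutant replicate 1 (0.0997), 2 (0.0605) or 4 (0.0764), and also with eBayes without trend (0.0567). Without mutant replicate 3 it was kept (0.00725), and 3 of the 4 genes were then called higher, as they were with array weights, so the list's count ran from 0 to 3. The list's median log2 fold change was 0.62 (TPM) and 0.25 (TMM-scaled). Relative to THF1, 3 of the 4 were called higher, where 6.09% of all genes were called higher and 2.66% lower.

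Of 15 chloroplast-encoded photosystem II genes 8 passed the filter, and 0 were called by limma with both scalings, in TPM or after TMM scaling (1 lower at an unadjusted p under 0.05 with both scalings). Their median log2 fold change was 0.03 in TPM, but the libraries differed widely. Coefficients of variation of TPM in the mutant ran from 21.9% (psbE) to 83.9% (psbN). There psbN averaged only 1.00 TPM, at the level of the filter, while psbA averaged 109 TPM and had 67.5%. The SE of the log2 fold change in TPM ran from 0.16 (psbE) to 0.43 (psbA). In mutant libraries psbA stood at 49.4 to 217 TPM, against 75.6 to 148 TPM in WT libraries. With such spread, the absence of calls does not show that these RNA levels were unchanged. How fully chloroplast RNA was captured was not tested. Of the 15, 2 were listed at 0 in all libraries.

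**Figure D4:**
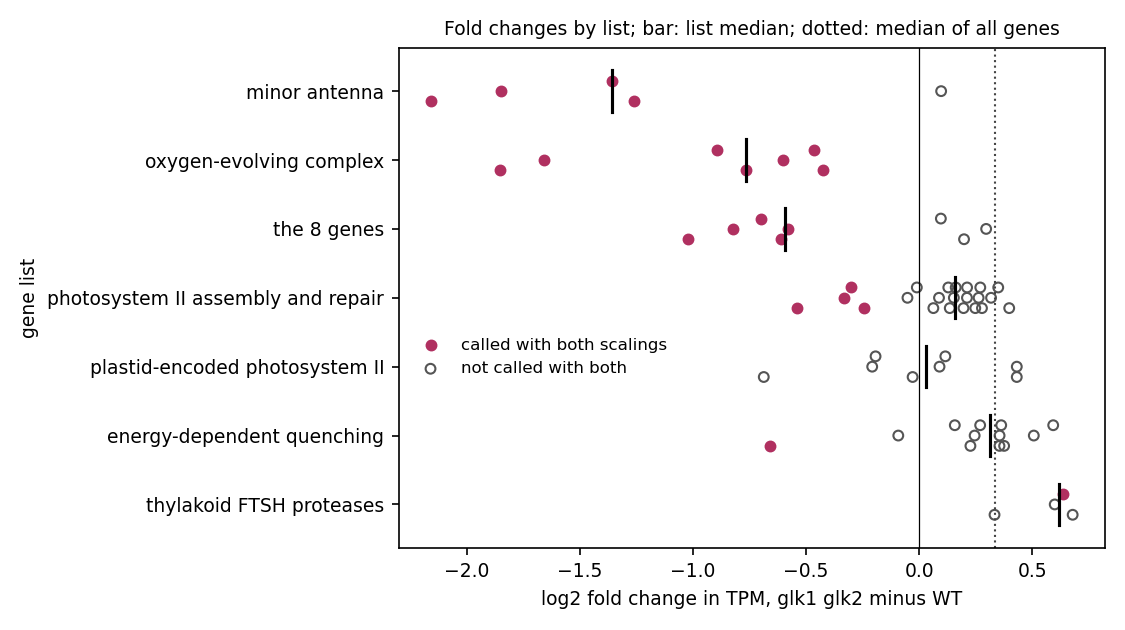
Log2 fold change in TPM, glk1 glk2 minus WT, of each tested gene in 7 lists of photosystem II and related genes. Filled points were called with both scalings, bars are list medians and the dotted line is the median of all tested genes at 0.33. The 8 genes fall into 5 between -1.02 and -0.58 and 3 between 0.10 and 0.30.

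The seedlings hold several organs and tissues, and in bulk RNA fewer cells of a type and less RNA per cell cannot be told apart. Summed TPM of 3 mesophyll markers was 30620 to 34414 in mutant libraries and 29237 to 32255 in WT libraries, and that of 7 root markers 1832 to 3064 in the mutant and 1699 to 2140 in WT. The 4 markers of epidermis and guard cells summed to 271 to 328 TPM in the mutant and 212 to 220.3 TPM in WT, and 2 phloem markers to 140.2 to 263 TPM in the mutant and 163 to 168 TPM in WT. With both scalings limma called 0 of the 15 tested markers (0 also at an unadjusted p under 0.05), and 0 of the 16 listed markers were at 0 in all libraries. In TPM it called 7 of them higher, where 63.0% of all genes were, and after TMM scaling 1 lower (CA1). With quantile normalization 2 of the 3 mesophyll markers were called higher, RBCS1A at 0.94 (limma adjusted p = 0.000558) and RCA at 1.37 (adjusted p = 5.486e-05) on the log2 scale. RBCS1A ranked 1 in the mutant and 3 in WT, and RCA 2 in the mutant and 12 in WT. The part of tissue make-up in the results was not tested.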

How the data were processed

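RNA of whole seedlings was sequenced on DNA nanoballs, per the labels' protocols. The submitters' processing notes name TopHat2, Cufflinks and the build TAIR10, with no versions; strand setting, annotation and filters were not stated there. The authors deposited 1 table of TPM per gene and library, whose columns each sum to 1e+06, with no read counts, so no count model could be used.

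Genes with at least 1 TPM in at least 3 of 7 libraries were tested (19127). limma 3.58.1 in R 4.3.3 (lmFit, eBayes with trend, two-sided, Benjamini-Hochberg over all tested genes) was fitted to log2(TPM + 1), a scale that understates changes of low genes, once on TPM and once on TPM divided by TMM factors (unweighted, trims of 30% and 5%), with no covariates. The fit was tested on simulated data in which randomly chosen genes were raised or lowered by like amounts. The shift of the median in TPM seen here was not built into that simulation. Differences between the 8 genes used the same test on log2 ratios within a library. Named genes in each list were up to 3 called ones with the largest absolute log2 fold change, with LPA19 added as the paralog of PSB27. Identifiers were matched to RefSeq TAIR10.1 (27445 of 27655, and 8 of 8). Windows of 250 bases before the annotated start were read from that genome in place of RefSeq promoter windows of another length that had been planned. The genes and lists were chosen with earlier results of these data known.

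Alternatives were other pseudocounts (0.1 and 10), other filters (none, or a mean of at least 5 TPM), each scaling alone, quantile normalization, eBayes without trend, array weights, a threshold of 0.01, the replicate number as a block, WT replicate 1 as deposited or with its affected values missing, and each library left out.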

Additional observations from a re-analysis of the deposited data

Results flagged for a closer look

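PSB28 in glk1 glk2 replicate 3 stood apart from the other mutant libraries, at 96.66 TPM against 139 to 145 TPM. Its gap to the nearest of them was 0.875 of the group's whole range, above Dixon's 95% critical value for 4 samples. Chance gives such a gap in about 5% of groups, and 10 genes were looked at. Without this library the log2 fold change of PSB28 was 0.23 (limma adjusted p = 0.0694 in TPM and 0.536 after TMM scaling). The same library held the lowest mutant value of 5 of the 8 genes.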

How the results depend on the processing

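PSBW, PSBX, PSBY, PSBTN and PSB27 were the 5 of 8 genes called lower under the settings tried, except that quantile normalization called 2 (PSBTN and PSB27) and the WT replicate 1 column as deposited called 4 (not PSBTN). With quantile normalization PSBW (0.047), PSBX (0.27), PSBP1 (0.053), PSBR (0.13) and PSBO1 (0.36) changed sign, of which PSBO1 was called higher (limma adjusted p = 0.0217), LHCB5 lost its call, and 922 genes were called lower over the whole table. As deposited, PSBTN (1.89) and LHCB4.2 (1.35) changed sign and 195 genes were called higher. TPM alone called 2 of the 8 genes (PSBS and THF1) and 12046 genes higher, and TMM scaling alone called 975 genes lower. Array weights called 2562 genes higher and a threshold of 0.01 called 156, against 589. Leaving out 1 library at a time gave 5 of the 8 genes lower each time, 162 to 758 genes higher, 356 to 572 genes lower, and 18 to 19 of the 28 pairs. With WT replicate 1, 2 or 3 left out, 192, 162 and 312 genes were called higher; with mutant replicate 1 left out, 308 were. The cause of these shifts was not tested.

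Deviations from group means of libraries with the same replicate number correlated at -0.096, 0.171 and 0.155, so the numbers were not taken to pair the libraries. With the replicate number as a block (mutant replicate 4, which has no WT partner, left out), 5 of the 8 genes, 430 genes lower and 234 genes higher were called, and FTSH8 was not (TMM-scaled limma adjusted p = 0.17). The depth is unknown, so how far counting error limits the low genes, PSBP2 among them, cannot be given.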
